A study of Mus musculus with 6 samples.

Results

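Fibrillar collagens and the proteins that process them were followed through 6 libraries of sorted mouse hepatic stellate cells. The set held 10 genes chosen by symbol: the collagen chain genes Col1a1, Col1a2, Col3a1, Col5a1, Col5a2 and Col11a1, and the processing genes Serpinh1, Pcolce, Bmp1 and Plod2. All 10 were among the 24346 gene symbols listed. Of these 10, 9 reached a mean of at least 1 FPKM, the minimum for testing, a unit that divides fragments by transcript length and sequencing depth, and Col11a1 did not. All cells came from wild type C57BL/6 mice aged 35 weeks and were isolated by liver perfusion at 37 or at 6 degrees. The 6 groups, of 1 library each, came from 3 sources at each temperature. In mice fed a high-fat diet, the tumour region and the region outside it (non-tumour) were taken, and livers of mice on a normal diet were the third source. Sorting kept CD49a+ cells that lacked CD31 and CD45.2, so the libraries describe that gate rather than a lineage-traced population. The labels do not say how many animals each library held, nor whether libraries came from separate animals.

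Fibrillar collagens are the rope-like proteins of scar tissue. Their chains are hydroxylated on proline and lysine and wound into a helix in the endoplasmic reticulum, held by the chaperone HSP47, exported as procollagen, and trimmed outside the cell so that fibrils can form. Collagens I and III make up most of the scar in a fibrotic liver, collagen V sets where fibrils start and how thick they grow, and activated stellate cells are a main source of all of them in the liver.

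The mRNAs of both collagen I chains and of Col5a2 share a sequence at the start codon, which Col5a1 lacks, and it is shown because it sets chains of the same fibrils apart. In each line, 20 bases before the start codon and 10 bases from it are given 5′ to 3′, from the longest protein-coding transcript of GENCODE M21 on GRCm38. Capitals mark a pair of 7-base arms that are reverse complements of each other, 7 bases apart, the second arm ending on the ATG. The arms were picked out after the sequences were seen. In mammalian collagen mRNAs this repeat is known to fold into a stem-loop.
Col1a1 (chr11:94936349-94936378, plus strand): taCATGTCTagggtctAGACATGttcagct
Col1a2 (chr6:4505820-4505849, plus strand): tgCATGTCTaagtggtAGACATGctcagct
Col5a2 (chr1:45502905-45502934, minus strand): caCATGTCTcatatttAGACATGatggcaa
Col5a1 (chr2:27886796-27886825, plus strand): ggcccgcgcaccccgccggcatggacgtac
Each window lies in 1 exon and spans the end of the 5′ UTR and the first codons. The repeat (CATGTCT, any 7 bases, AGACATG) was found in 3 of 20145 windows searched (0.0149%), those of Col1a1, Col1a2 and Col5a2. Col1a1 and Col1a2 were identical at 24 of 30 bases, whereas Col1a1 and Col5a1 were identical at 9 of 30. Of the 9 members searched, Col11a1, Serpinh1, Pcolce, Bmp1 and Plod2 did not hold it either.

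Each library held an estimated 1.63e+07 to 2.3e+07 fragments, from the size of the smallest steps between low FPKM values. The estimate put 846 to 1.54e+03 fragments on Plod2, the expressed member with the lowest mean, which is a counting error of at most 3.44%. The stellate cell genes Lrat, which stores vitamin A, and Des, an intermediate filament, stood at 335 to 538 and 93.8 to 135 FPKM in the 6 libraries. Markers of other cells were present and unequal. Pecam1 and Kdr, endothelial receptors, ranged over 0.9 to 90.6 and 2.2 to 187 FPKM, Lyz2 and Csf1r, macrophage genes, over 15.4 to 857 and 0.479 to 70.3 FPKM, and Alb, the hepatocyte albumin gene, over 5.39 to 29.3 FPKM. The 12 endothelial genes summed to 521, 563 and 69.2 FPKM at 37 degrees in the tumour, non-tumour and normal diet libraries and to 2044, 4119 and 1656 FPKM at 6 degrees. The 12 macrophage genes summed to 849, 33.4 and 44.8 FPKM at 37 degrees and to 2059.8, 566 and 492 FPKM at 6 degrees. Of portal fibroblast markers, other cells of the liver that make collagen, Thy1 stood at 0 to 0.453 FPKM and Clec3b at 0 in every library. Other markers of that list were expressed, with Gsn at 107 to 291 FPKM and Dpt at 10.4 to 40.1 FPKM. Of the list of 10, 7 reached the minimum for testing, and the 10 summed to 157 to 374 FPKM. In sorted pools, fewer cells of a type and less RNA per cell cannot be told apart.

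Collagen transcripts were abundant in every library. The 6 collagen genes together took 0.279%, 0.276% and 0.34% of summed FPKM at 37 degrees in the tumour, non-tumour and normal diet libraries, and 0.414%, 0.239% and 0.395% at 6 degrees. Col3a1, the single chain of collagen III (GRCm38 chromosome 1, 45311538 to 45349706), had the highest level, with a mean of 952 FPKM, rank 55 of all symbols. Pcolce, Col1a2, Serpinh1 and Col1a1 followed at means of 507, 328, 307 and 292 FPKM. Col5a1 averaged 157 FPKM, and Col5a2, Bmp1 and Plod2 averaged 39.5, 28.0 and 17.2 FPKM. Pcolce stood below Col3a1 in every library. In the order of the means, Col1a2, Serpinh1 and Col1a1 had ranges over the 6 libraries that overlapped, at 236 to 409, 276 to 365 and 165 to 389 FPKM. Serpinh1 varied least over the 6 libraries, with a coefficient of variation of 10.4%, and Col1a1 varied most among the 9, at 31.0%. The median over the 11557 genes tested was 15.5%.

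**Figure D1:**
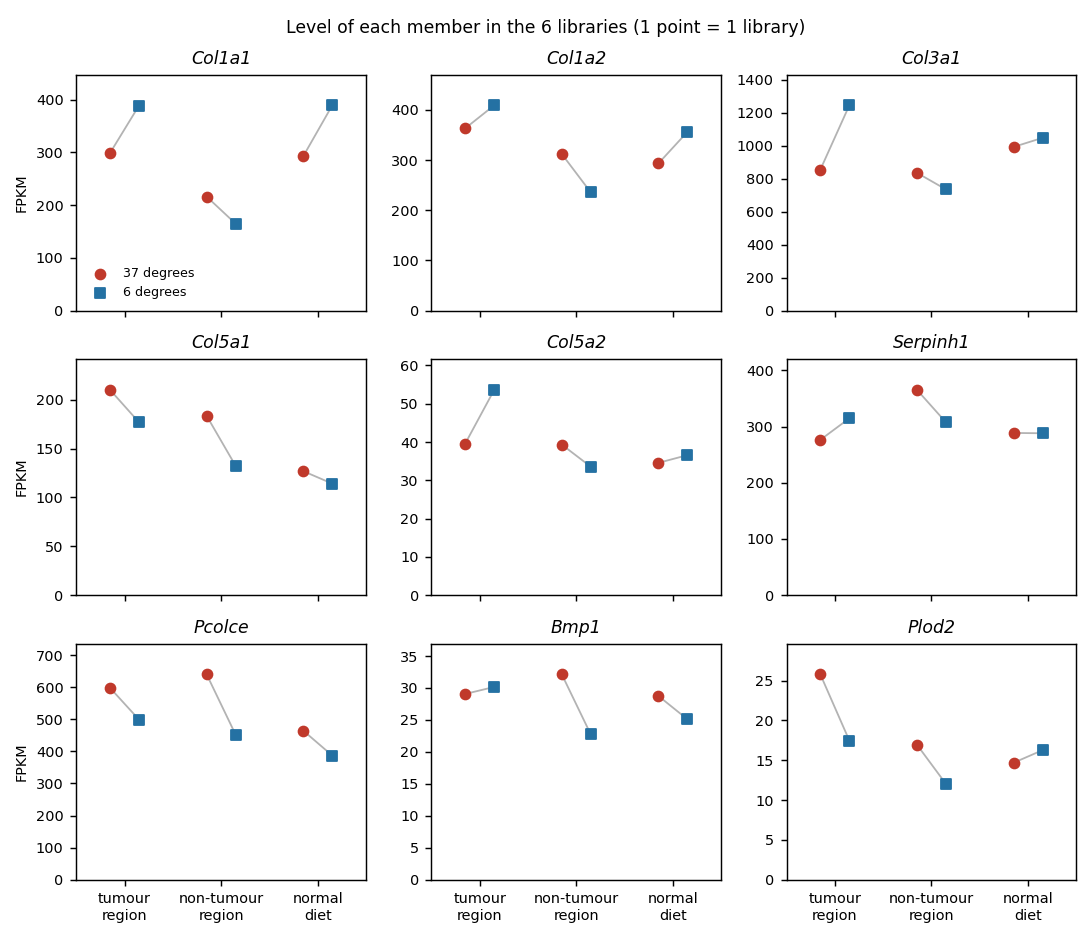
FPKM of the 9 expressed members (1 panel each, linear axis from 0) in the 6 libraries, by liver source, with circles for 37 degrees and squares for 6 degrees joined by a line. Col1a1 was lowest in the 2 non-tumour libraries (216 and 165 FPKM) and Col5a1 lowest in the 2 normal diet libraries (127 and 114 FPKM).

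The first comparison set collagen transcripts of cells from 37-degree perfusion against those from 6-degree perfusion. No expressed member passed. The test was limma on log2(FPKM + 1) with liver source and temperature as additive terms, over 3 pairs of libraries, with p adjusted by the Benjamini-Hochberg method over all genes and 0.05 as the threshold. With 1 library per group, the test sets an effect only against the departure of the libraries from additive effects. Over all genes, 5.13% of 11557 passed (59 or 0.511% higher and 534 or 4.62% lower at 37 degrees), against 0 of 9 members by limma. Without the cold non-tumour library 32 genes were higher and 34 lower. Before adjustment, 2 members were higher and 0 lower (p under 0.05), beside 985 higher and 1394 lower of the 11557 genes tested. The median log2 fold change of the 9 was 0.02, beside 0.01 over all genes tested. Markers moved with temperature: all 12 endothelial genes were called lower at 37 degrees, as were 8 of 11 macrophage genes tested, and 4 of 12 stellate cell genes were called higher. Their part in the results was not tested.

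The collagen I and III chains and Col5a2 shared a pattern in which the warm libraries were lower in normal diet livers and the tumour region and higher in the non-tumour region. Col1a1, the major chain of collagen I (chromosome 11, 94936224 to 94953042), stood at 299, 216 and 293 FPKM at 37 degrees in the tumour, non-tumour and normal diet libraries, and at 389, 165 and 389 FPKM at 6 degrees. The 37-degree level was thus 0.769 of the 6-degree level in the tumour region and 0.752 in normal diet, but 1.31 times it in the non-tumour region. Its model estimate was -0.13 ± 0.17 on the log2 scale (SE, limma, adjusted p = 0.709).

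Col1a2, the partner chain of collagen I (chromosome 6, 4504814 to 4541544), had 363, 312 and 294 FPKM at 37 degrees and 409, 236 and 356 FPKM at 6 degrees in the same order of sources. Col3a1 had 855, 836 and 993 FPKM at 37 degrees and 1246, 735 and 1049 FPKM at 6 degrees. Both had their highest value in the cold tumour library and their lowest in the cold non-tumour library. Col5a2, the lesser chain of collagen V (chromosome 1, 45374321 to 45503282), had 39.6, 39.3 and 34.6 FPKM at 37 degrees and 53.6, 33.5 and 36.6 FPKM at 6 degrees. The warm tumour library stood at 0.687 of the cold one for Col3a1 and 0.738 for Col5a2. In normal diet the differences were small, with the warm library at 0.947 of the cold one for Col3a1 and 0.945 for Col5a2. The 4 genes Col1a1, Col1a2, Col3a1 and Col5a2 were the members with this sign pattern, which 6.7% of all genes tested had. The pattern rests on 1 pair of libraries in each source, and the difference between sources was not tested. Without the non-tumour pair, the log2 estimate for Col1a1 was -0.39 (limma, adjusted p = 0.176).

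**Figure D2:**
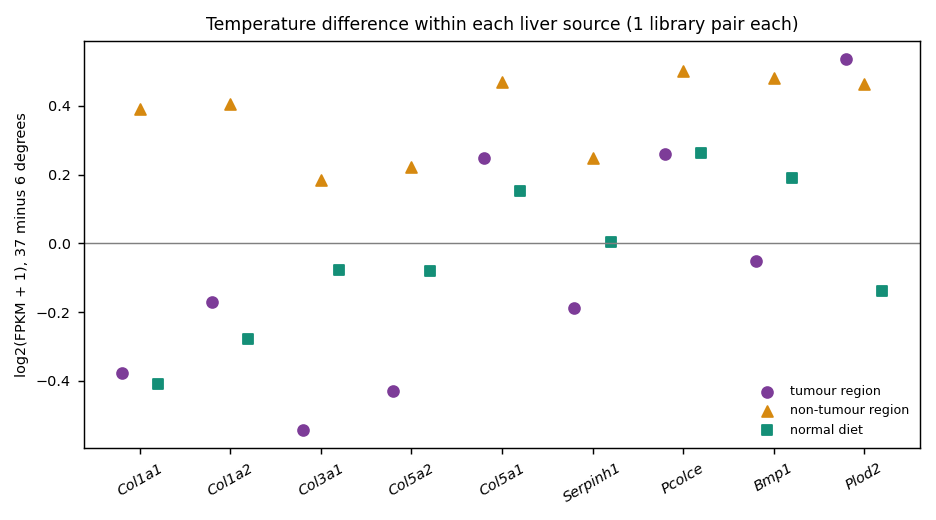
Difference in log2(FPKM + 1) between 37 and 6 degrees for the 9 expressed members, with 1 point for each liver source (1 pair of libraries each). All 9 were above 0 in the non-tumour region, as were 52.1% of all genes tested. Col1a1, Col1a2, Col3a1 and Col5a2 were below 0 in the tumour region and in normal diet.

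Pcolce and Col5a1 were the 2 members with higher values at 37 degrees in all 3 sources, a pattern that 23.4% of all genes tested had. Pcolce encodes the enhancer that speeds removal of the procollagen C-propeptide (chromosome 5, 137605103 to 137613784). It stood at 598, 640.1 and 465 FPKM at 37 degrees in the tumour, non-tumour and normal diet libraries, and at 499, 452 and 387 FPKM at 6 degrees. The 37-degree libraries were 1.2, 1.42 and 1.2 times the 6-degree ones, and the ranges of the groups overlapped. The estimate was 0.34 ± 0.08 (SE, 3 pairs, limma, adjusted p = 0.0923), and 0.17 under quantile normalization (adjusted p = 0.335). Col5a1, the main chain of collagen V (chromosome 2, 27886425 to 28039514), had 210.2, 184 and 127 FPKM at 37 degrees and 177, 132 and 114 FPKM at 6 degrees, with an estimate of 0.29 ± 0.09 (adjusted p = 0.146). When libraries were rescaled to the 12 stellate cell markers, an alternative added after the data were seen, both estimates were below 0, at -0.07 for Pcolce and -0.12 for Col5a1. That rescaling moved the median of all genes to -0.35, and 5265 of the 11557 genes tested were then called lower and 32 higher. Among those called lower were Col1a1, Col1a2, Col3a1, Col5a2 and Serpinh1, 5 members in all.

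Of the other processing genes, none passed. Serpinh1 encodes HSP47, the procollagen chaperone of the endoplasmic reticulum, and belongs to the heat-inducible genes (chromosome 7, 99345376 to 99353239). It stood at 276, 365 and 289 FPKM at 37 degrees in the tumour, non-tumour and normal diet libraries and at 315, 308 and 288 FPKM at 6 degrees, with an estimate of 0.02 ± 0.10 (limma, adjusted p = 0.928). The cytosolic heat shock gene Hspa1a had 58.9, 119 and 167 FPKM at 37 degrees and 5.85, 4.01 and 2.94 FPKM at 6 degrees in the same libraries. Hspa1a thus rose by 4.37 ± 0.42 on the log2 scale (adjusted p = 0.0103; 0.0651 at most when 1 non-tumour library was left out). Its near-identical copy Hspa1b is counted apart, so the split between the 2 is uncertain. Hsp90aa1, a cytosolic chaperone gene, rose as well (adjusted p = 0.042), but passed in 0 of 6 fits without 1 library (adjusted p of 0.0548 to 0.1025), and 4 of 10 heat shock genes tested were called higher.

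The 250 bases before the start of Serpinh1 are shown because the factor that drives Hspa1a in heat binds arrays of GAA units (RefSeq, GRCm38.p6, chr7:99353240-99353489, minus strand, 5′ to 3′). Capitals mark the single GC box, GGGCGG, found in the window.
Serpinh1: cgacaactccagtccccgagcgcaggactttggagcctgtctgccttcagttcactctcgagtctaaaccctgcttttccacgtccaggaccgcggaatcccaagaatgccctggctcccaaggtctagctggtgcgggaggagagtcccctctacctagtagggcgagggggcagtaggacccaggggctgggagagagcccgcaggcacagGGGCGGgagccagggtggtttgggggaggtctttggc
Searched on both strands, GAANNTTC and TTCNNGAA were absent from these letters and present in 6.69% and 7.17% of 32851 RefSeq promoter windows of the same length. GGGCGG was present in 32.7%. The table held 6 of the 10 members, and neither GAANNTTC nor TTCNNGAA occurred in the windows of the other 5. Among these, the windows of Col1a2 and Pcolce held 127 and 83 exonic bases by GENCODE. Only exact matches within 250 bases were searched, so imperfect arrays or sites elsewhere could not be found. Whether Serpinh1 has a working heat shock site was not tested.

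Bmp1, the protease that cuts off the C-propeptide (chromosome 14, 70474558 to 70520234), had 29.1, 32.1 and 28.8 FPKM at 37 degrees in the tumour, non-tumour and normal diet libraries, and 30.2, 22.7 and 25.1 FPKM at 6 degrees. Its estimate was 0.21 ± 0.12 (limma, adjusted p = 0.396). Plod2, which hydroxylates telopeptide lysines and so sets the type of cross-link (chromosome 9, 92542223 to 92608428), had 25.8, 17.0 and 14.7 FPKM at 37 degrees and 17.5, 12.03 and 16.3 FPKM at 6 degrees. Its warm tumour library stood above the other 5, and its estimate was 0.29 ± 0.15 (adjusted p = 0.363). Col11a1, a chain of collagen XI known from cartilage (chromosome 3, 114030540 to 114220718), was listed at 0 in 5 libraries and at 0.0131 FPKM in the cold non-tumour library. Over its longest transcript, 3 fragments would have been worth 0.017 to 0.0239 FPKM, so no level was detectable at this depth.

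The tumour region was next set against normal diet livers, over 2 pairs of libraries. Col5a1 rose, and it was the 1 member of 9 to pass. Over all genes tested 9.35% passed (702 or 6.07% higher and 379 or 3.28% lower; 541 and 471 under quantile normalization, 968 and 297 when rescaled to stellate cell markers). Col5a1 was at 210.2 and 177 FPKM in the tumour region (37 and 6 degrees), against 127 and 114 FPKM in normal diet livers. Both tumour libraries were above both normal diet libraries, by 1.66 times at 37 degrees and 1.55 times at 6 degrees. The estimate was 0.68 ± 0.11 on the log2 scale (SE, limma, adjusted p = 0.0214). Leaving out any of the 4 libraries concerned ended the call: adjusted p was 0.0796 and 0.0701 without the warm and the cold tumour library, and 0.119 and 0.0599 without the warm and the cold normal diet library. Adjusted p was also 0.0633 under quantile normalization, 0.0548 without the low-value filter and 0.184 without the temperature term.

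All 9 estimates for the tumour region against normal diet were above 0, with a median of 0.25 beside 0.01 over all genes tested. For 6 members, Col1a2, Col5a1, Col5a2, Pcolce, Bmp1 and Plod2, the libraries of the 2 groups did not overlap, and both tumour libraries were the higher ones, as for 25.1% of all genes tested. Pcolce had 598 and 499 FPKM in the tumour region (37 and 6 degrees), against 465 and 387 FPKM in normal diet, an estimate of 0.36 ± 0.10 (limma, adjusted p = 0.0889). Under quantile normalization the Pcolce estimate was 0.06 (limma, adjusted p = 0.773). Plod2 had 25.8 and 17.5 FPKM in the tumour region, against 14.7 and 16.3 FPKM in normal diet (0.43 ± 0.19, adjusted p = 0.221). The estimates were 0.37 ± 0.17 for Col5a2 and 0.25 ± 0.18 for Col1a2 (adjusted p = 0.238 and 0.425). Col1a1 and Col3a1 had estimates of 0.01 ± 0.21 and 0.02 ± 0.18 (adjusted p = 0.976 and 0.966). Col1a1 stood at 299 and 389 FPKM in the tumour region, against 293 and 389 FPKM in normal diet. The macrophage genes moved with this comparison, at sums of 849 and 2059.8 FPKM in the tumour region, against 44.8 and 492 FPKM in normal diet. Of 10 myofibroblast genes, Tagln, Postn, Acta2, Timp1, Tpm2 and Cnn1 were called higher in the tumour region. Lox, Thbs2 and Mmp14 did not pass, and Spp1 was on the other side of 0, at -1.02 (limma, adjusted p = 0.0571). Of 7 smooth muscle genes, Actg2, Cnn1 and Lmod1 were called higher. Of 7 portal fibroblast genes tested, Dpt was called higher (1.30, limma, adjusted p = 0.0215). All 12 endothelial genes had estimates above 0 and 1 was called higher, while 3 stellate cell genes were called higher and 3 lower. The part of these lists in the result was not tested.

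**Figure D3:**
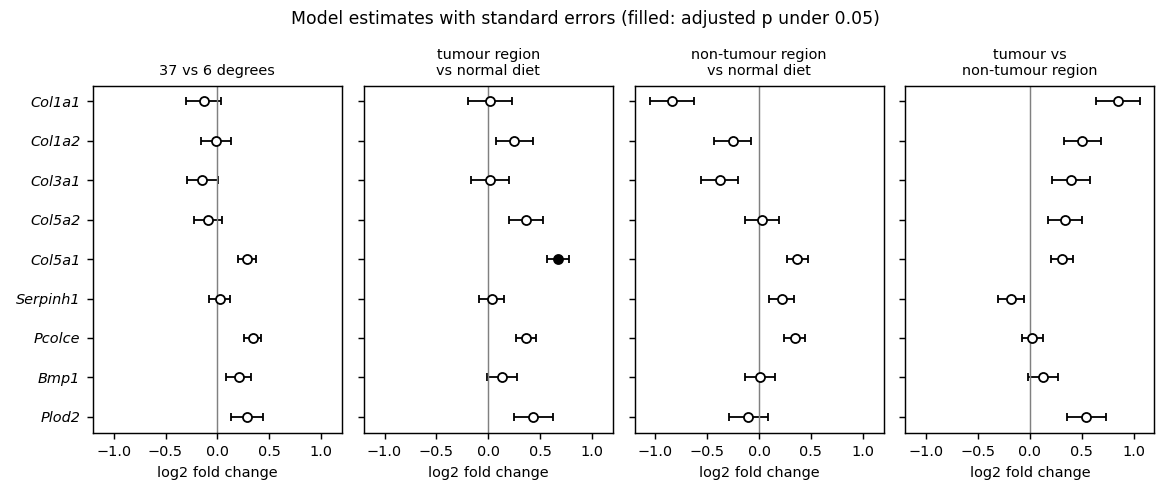
Model estimates (log2 fold change, points) with standard errors (bars) for the 9 expressed members in the 4 comparisons, with filled points for adjusted p under 0.05. Col5a1 in the tumour region against normal diet, at 0.68 ± 0.11, is the filled point.

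In the non-tumour region against normal diet livers, 0 of 9 members passed by limma. After adjustment 5.56% of all genes tested passed (2.98% higher and 2.59% lower). Unadjusted, 2 members were higher and 1 lower (limma, p under 0.05), beside 1460 higher and 1043 lower of the 11557 genes tested. The comparison uses the same normal diet libraries as the one before. Col1a1 was at 216 and 165 FPKM in the non-tumour region (37 and 6 degrees), against 293 and 389 FPKM in normal diet livers. The non-tumour level was 0.738 of the normal diet level at 37 degrees and 0.423 of it at 6 degrees. The estimate was -0.84 ± 0.21 (SE, limma, adjusted p = 0.0909), and it was -0.44 without the cold non-tumour library and -1.23 without the warm one. For Col1a1 and Col3a1, both non-tumour libraries were under the other 4 libraries of the series, as for 5.37% of all genes tested. Col3a1 had an estimate of -0.38 ± 0.18 (adjusted p = 0.309).

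Col5a1, Pcolce and Serpinh1 had values on the other side of normal diet there. Col5a1 was at 184 and 132 FPKM in the non-tumour region, against 127 and 114 FPKM in normal diet (0.37 ± 0.11, adjusted p = 0.118). Pcolce was at 640.1 and 452 FPKM in the non-tumour region, against 465 and 387 FPKM in normal diet, where the cold non-tumour library was under the warm normal diet one (0.34 ± 0.10, adjusted p = 0.126). Serpinh1 was at 365 and 308 FPKM in the non-tumour region, against 289 and 288 FPKM in normal diet (0.22 ± 0.12, adjusted p = 0.391). Col5a1, Pcolce and Serpinh1 were higher at both temperatures, as were 37.7% of all genes tested. Col1a1 and Col3a1 were lower at both, as were 29% of all genes tested. Endothelial genes moved with this comparison, at sums of 563 and 4119 FPKM in the non-tumour region against 69.2 and 1656 FPKM in normal diet. Of 10 myofibroblast genes, Tagln, Timp1 and Postn were called higher and Spp1 lower. Of 12 stellate cell genes, 3 were called higher and 0 lower. What part these lists had in the result was not tested.

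Within the livers of high-fat diet mice, the tumour was set against the non-tumour region, and 0 of 9 members passed by limma. Unadjusted, 4 were higher and 0 lower (p under 0.05), beside 736 higher and 434 lower of the 11557 genes tested. After adjustment 0.45% of all genes tested passed. The 6 members Col1a1, Col1a2, Col3a1, Col5a1, Col5a2 and Plod2 were higher in the tumour region at both temperatures, as were 26.6% of all genes tested. Col1a1 stood at 299 and 389 FPKM in the tumour region, against 216 and 165 FPKM in the non-tumour region, 1.38 times at 37 degrees and 2.36 times at 6 degrees (0.85 ± 0.21, adjusted p = 0.276). Col1a2 had 363 and 409 FPKM in the tumour region, against 312 and 236 FPKM in the non-tumour region (0.51 ± 0.18, adjusted p = 0.444). Plod2 had 25.8 and 17.5 FPKM in the tumour region, against 17.0 and 12.03 FPKM in the non-tumour region (0.54 ± 0.19, adjusted p = 0.443). Estimates for Pcolce and Serpinh1 were 0.02 ± 0.10 and -0.18 ± 0.12 (adjusted p = 0.951 and 0.639). The median over the 9 was 0.34, beside -0.02 over all genes tested. Macrophage genes summed to 849 and 2059.8 FPKM in the tumour region, against 33.4 and 566 FPKM in the non-tumour region, and their part was not tested. All 10 myofibroblast genes had estimates above 0, with a median of 0.61, and Spp1 and Cnn1 were called higher. Spp1 stood at 22.8 and 22.5 FPKM in the tumour region (37 and 6 degrees) and at 4.84 and 3.79 FPKM in the non-tumour region. Its highest values were those of normal diet, at 37.2 and 59.5 FPKM. The 7 smooth muscle genes, Cnn1 among them, had a median of 0.79, and the part of both lists was not tested.

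Ratios between members within a library do not depend on its depth. Collagen I is assembled mostly from a pair of Col1a1 chains and a single Col1a2 chain. The FPKM ratio of Col1a1 to Col1a2 was 0.823, 0.693 and 0.998 at 37 degrees in the tumour, non-tumour and normal diet libraries, and 0.951, 0.699 and 1.09 at 6 degrees. Both non-tumour libraries had the lowest ratios and both normal diet libraries the highest. The ratio of Col5a1 to Col1a1 was 0.703, 0.849 and 0.433 at 37 degrees and 0.455, 0.803 and 0.293 at 6 degrees, so both high-fat diet regions were above normal diet at each temperature. Serpinh1 over Col1a1 was 1.69 and 1.87 in the non-tumour libraries (37 and 6 degrees) and between 0.74 and 0.985 in the other 4. Col3a1 over Col1a1 was 3.87 and 4.46 in the non-tumour libraries and between 2.69 and 3.39 in the other 4. Each of these ratios includes Col1a1, which was lowest in the 2 non-tumour libraries, so they are not separate findings. Of ratios without Col1a1, Col3a1 over Col1a2 was 2.68 and 3.12 in the non-tumour libraries, inside the full range of 2.35 to 3.38. Serpinh1 over Col3a1 was 0.437 and 0.418 there, above the other 4. All ratios were chosen after the levels were known and are given as descriptions, with no test.

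**Figure D4:**
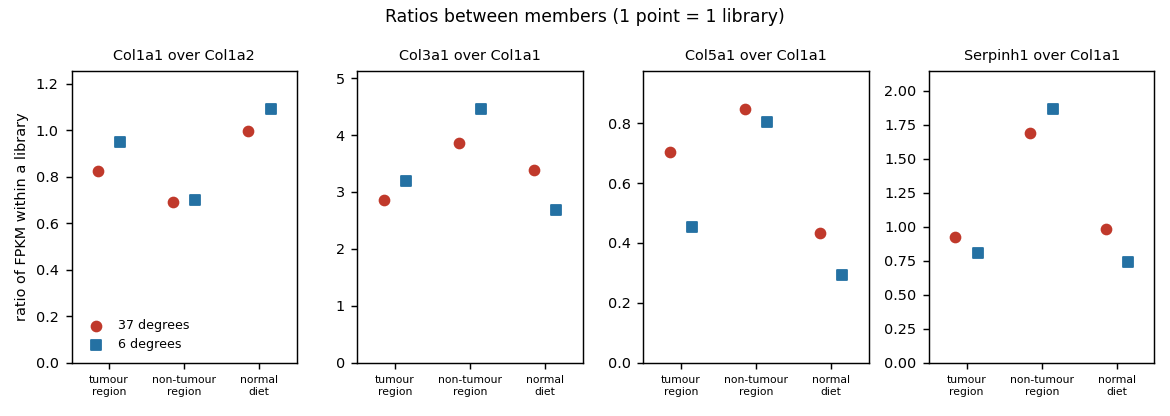
Ratios of FPKM between members within each library (linear axes from 0), by liver source, with circles for 37 degrees and squares for 6 degrees. Both non-tumour libraries had the lowest Col1a1 to Col1a2 ratios (0.693 and 0.699) and the highest Serpinh1 to Col1a1 ratios (1.69 and 1.87). Every ratio shown includes Col1a1.

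Of 12 genes tested for enzymes and partners that modify procollagen, P4ha1, P3h2 and Plod3 rose in the tumour region. The same 3 rose in the non-tumour region, each against the same normal diet libraries, and none fell. Over all genes tested, 6.07% were called higher in the tumour region and 2.98% in the non-tumour region. P3h2, a collagen prolyl 3-hydroxylase, was at 58.1 and 49.2 FPKM in the tumour region (37 and 6 degrees) and at 66.7 and 49.2 FPKM in the non-tumour region, against 22.8 and 15.3 FPKM in normal diet. Its estimates were 1.47 in the tumour region (limma, adjusted p = 0.00716) and 1.57 in the non-tumour region (adjusted p = 0.00653). The tumour call of P3h2 held without each of the 6 libraries in turn. Its non-tumour call did not hold without either non-tumour library (adjusted p of at most 0.0741). P4ha1, the catalytic subunit of a prolyl 4-hydroxylase, rose by 0.75 in the tumour region and 0.83 in the non-tumour region (adjusted p = 0.0165 and 0.0151). Plod3, which hydroxylates and glycosylates lysines, rose by 0.67 and 0.71 (adjusted p = 0.0165 and 0.0172). Without 1 library, P4ha1 and Plod3 passed in 4 and 2 of 6 fits for the tumour region, and in 3 and 2 of 6 for the non-tumour region. P4hb, Ppib and Crtap, the genes of this list with the highest means, did not pass in either comparison. In the temperature comparison 0 of the 12 passed by limma (unadjusted p under 0.05 for 3 higher and 1 lower).

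Of 14 genes for folding and export of procollagen tested, Sparc, Ctage5, Tmem38b, Hspa5 and Calr rose in the tumour region against normal diet. Hspa5 and Calr rose in the non-tumour region, and none fell. The shares called higher over all genes tested were 6.07% and 2.98% in these 2 comparisons. Sparc, a collagen-binding matrix protein, was at 2734 and 2696 FPKM in the tumour region (37 and 6 degrees), against 1624.5 and 1558 FPKM in normal diet (0.77, limma, adjusted p = 0.0153). Hspa5, the general endoplasmic reticulum chaperone BiP, was at 1215 and 768 FPKM in the tumour region and 951 and 829 FPKM in the non-tumour region, against 428 and 433 FPKM in normal diet. Its estimates were 1.16 and 1.04 (adjusted p = 0.0188 and 0.0321). Calr, a chaperone of glycoproteins, rose by 0.64 and 0.61 in the tumour and the non-tumour region (adjusted p = 0.0179 and 0.0248). Tmem38b, an endoplasmic reticulum ion channel whose loss causes brittle bone, rose by 0.90 and Ctage5, a cargo receptor partner, by 0.56 in the tumour region (adjusted p = 0.0238 and 0.0321). Without 1 library, Hspa5, Calr, Sparc, Tmem38b and Ctage5 passed in 5, 3, 2, 2 and 0 of 6 fits for the tumour region, and Hspa5 and Calr in 2 and 2 of 6 for the non-tumour region. Hspa5 and Calr serve many secreted proteins besides collagen. All 14 had temperature estimates above 0, none passed by limma (unadjusted p under 0.05 for 4 higher and 0 lower), and the median was 0.15 beside 0.01 over all genes. Larp6, which in human cells binds the stem-loop of the collagen I mRNAs, was at 0.396 to 1.34 FPKM, under the minimum for testing.

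Other members of the family and of the propeptide step passed in none of the 4 comparisons. Of the 5 further fibrillar collagen genes 3 were tested, at means of 10.4 FPKM for Col5a3, 2.29 for Col27a1 and 2.13 for Col24a1, while Col2a1 was at 0 in every library and Col11a2 at 0 to 0.264 FPKM. By limma 0 of these 3 passed, with 1 higher for temperature at an unadjusted p under 0.05. Of 9 genes for propeptide cleavage 5 were tested and 0 passed by limma in any comparison. At an unadjusted p under 0.05 there were 1 higher and 1 lower by temperature, 0 between tumour region and normal diet, 1 higher and 1 lower between non-tumour region and normal diet, and 1 higher between tumour and non-tumour region. Adamts2 and Adamts14, which remove the N-propeptide, and Furin, which activates proteases, were at 62.9 to 82.6, 9.01 to 17.2 and 17.0 to 22.1 FPKM. Of 6 collagen-binding genes tested, Itgb1 and Ddr2, an integrin subunit and a collagen receptor, did not pass, and Itga1 rose in both high-fat diet regions, at 179 and 172 FPKM in the tumour region and 204 and 161 FPKM in the non-tumour region, against 90.5 and 87.6 FPKM in normal diet. Its estimates were 0.97 and 1.01 (limma, adjusted p = 0.0103 and 0.0109; 5 and 3 of 6 fits without 1 library passed). Over all genes tested, 6.07% were called higher in the tumour region and 2.98% in the non-tumour region. Itga1 encodes CD49a, the antigen on which the cells were sorted.

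The genes whose pattern was most like Col1a1, by the root mean square difference of centred log2(FPKM + 1) over the 6 libraries, were Fkbp11, Abcg3, Mthfd2, Ephx2 and Arhgap19, at 0.15, 0.16, 0.17, 0.18 and 0.18. Fkbp11, an isomerase of the secretory pathway, had 13.5, 9.07 and 13.9 FPKM at 37 degrees in the tumour, non-tumour and normal diet libraries and 17.9, 9.37 and 20.97 FPKM at 6 degrees. Among the members, Col3a1 and Col1a2 were the nearest to Col1a1, both at 0.25 and at ranks 33 and 34 of the genes tested, while Col5a1 was at 0.55 and rank 8234. For Serpinh1 the most alike were L3mbtl3, Ankle2, Fam63b, Fyco1 and Tmem260, at 0.01 to 0.03, and Bmp1 was the nearest member, at 0.16 and rank 2886. A gene with a small spread, such as Serpinh1, has many near neighbours by this measure. The added 1 FPKM also shrinks the differences of genes near that level. L3mbtl3 stood at 1.59 to 2.41 FPKM, Abcg3 at 2.5 to 7.8, Mthfd2 at 1.5 to 4.5 and Arhgap19 at 0.77 to 2.6 FPKM.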

How the data were processed

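RNA of sorted cells was sequenced in 6 libraries, 1 per group. The deposited values are FPKM, made by the authors with TopHat2 2.1.1, Bowtie2 and Cuffdiff 2.2.1 on mm10, per the submitters' processing notes. The sources used here do not give annotation, strand use or scaling. Unlisted non-coding or unclassified genes overlap Col5a1, Pcolce and Plod2 on the other strand and Col1a2, Col3a1 and Col5a2 on the same strand, and could share reads with them. Fbxo24, which overlaps Pcolce, stood at 0 to 0.189 FPKM.

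The fit used limma 3.58.1 (R 4.3.3), with log2(FPKM + 1) as input. Genes averaging 1 FPKM or more were kept and small RNA genes left out. The additive model left 2 residual degrees of freedom (5.37 with the intensity-trended prior). P-values measure only the departure of these libraries from additive effects, which may be technical. FPKM hold no counts. Of 2929 genes with low values in 3 or more libraries, 51.1% held values that were whole multiples of their lowest step (tolerance 0.01 in log2), and 332 genes with 1 transcript set the depth. Fragment counts and floors from it are estimates and cover counting error only.

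Members and lists were chosen with earlier results of these data known. Named were all members, pathway genes that passed, the 3 of each pathway list with the highest means, 9 markers, Hspa1a and Hsp90aa1, and the 5 genes most like Col1a1 and Serpinh1. The myofibroblast and smooth muscle genes, Fkbp11's values, Clec3b, Gsn, Dpt, Larp6 and the ratios were added after values were seen. Positions are from GENCODE M21 (GRCm38). Start codon windows of 9 of the 10 members were searched, and the other is not reported here. The fit was tested on simulated data. Alternatives were other pseudocounts, filters, scalings and priors, and left-out libraries, pairs and terms.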

Additional observations from a re-analysis of the deposited data

Results flagged for a closer look

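The temperature difference had opposite signs between liver sources for 7 of the 9 expressed members, as for 54.7% of all genes tested. Each source had 1 pair of libraries, so no test between sources was made. The spread between the highest and the lowest of the 3 source differences, in log2(FPKM + 1), was 0.80 for Col1a1, 0.73 for Col3a1, 0.68 for Col1a2, 0.67 for Plod2, 0.65 for Col5a2, 0.53 for Bmp1 and 0.43 for Serpinh1.

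A source difference had opposite signs at 37 and at 6 degrees in 10 cases over 8 members, also untested. For tumour region against normal diet, 3 of 9 members and 32.5% of all genes tested had opposite signs. The 2 temperatures differed by 0.46 on the log2 scale for Col3a1, 0.19 for Serpinh1 and 0.0308 for Col1a1. For non-tumour region against normal diet it was 4 of 9 members and 33.2% of all genes, and they differed by 0.68 for Col1a2, 0.60 for Plod2, 0.30 for Col5a2 and 0.29 for Bmp1. For tumour against non-tumour region it was 3 of 9 members and 40.8% of all genes, and they differed by 0.53 for Bmp1, 0.43 for Serpinh1 and 0.24 for Pcolce.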

How the results depend on the processing

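The 36 member estimates were recomputed under each alternative, 657 values in all, of which 58 changed sign. Col5a1 in the tumour region was the 1 member call, and it was lost in 7 settings. The number of members passing there was 1, against 0 without the low-value filter, under quantile normalization and without the temperature term, 2 when rescaled to stellate cell markers, and 0 to 1 without 1 library. In the other 3 comparisons it stayed at 0, apart from 5 for temperature when rescaled to stellate cell markers. That rescaling, added after the data were seen, moved the median temperature change of all genes to -0.35 and called 5265 of the 11557 genes tested lower. Temperature estimates with it were below 0 and passed, in place of estimates above 0, for Serpinh1 (-0.39), Plod3 (-0.35), P4hb (-0.32), Ppib (-0.30), Sparc (-0.31), Ctage5 (-0.36), Calr (-0.31) and Itga1 (-0.26).

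Of all genes tested, 593 passed for temperature, against 330 at a minimum mean of 5 FPKM, 0 when low values were kept (limma, 1020 higher and 1820 lower unadjusted, p under 0.05), 0 without the source term (424 and 814), 83 without the non-tumour pair, 5297 rescaled to stellate markers and 66 to 471 without 1 library (66 and 144 without the cold and the warm non-tumour one). Higher and lower calls numbered 32 and 34 without the cold non-tumour library and 32 and 51 without the pair. For tumour region against normal diet 1081 passed, against 681 at that minimum, 505 with low values kept, 4 without the temperature term and 303 to 962 without 1 library. For non-tumour region against normal diet 643 passed, against 265 with low values kept, 4 without the temperature term and 0 to 900 without 1 library (0 without either non-tumour one, 1009 and 684 or 807 and 631 unadjusted). For tumour against non-tumour region 52 passed, against 0 at the minimum of 5 FPKM (439 and 321 unadjusted), 0 with low values kept (1152 and 501), 0 with a pseudocount of 0.1 FPKM (722 and 417), 0 without the temperature term (325 and 205), 81 with median-ratio rescaling, 1 with small RNA genes kept, 128 rescaled to stellate markers and 0 to 161 without 1 library. The cause of these shifts was not tested. The tests already pair libraries, by liver source for temperature and by temperature for the sources. The labels give no replicate numbers to pair by, so these terms are the only pairing.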
